A study of Macaca mulatta with 6 samples.

Results

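Claudins, occludin, the scaffold protein ZO-1 and the keratins of simple epithelium were described in 6 rhesus monkey induced pluripotent stem cell (iPSC) lines. The 10 genes were CLDN3, CLDN4, CLDN6, CLDN7, CLDN10, OCLN, TJP1, KRT8, KRT18 and KRT19, chosen by symbol from 30246 gene rows. A row carried the symbol for 9 of the 10, of which 8 passed the filter on low values. KRT19 had no row under its symbol, and the row named KRT18 in the files lay on chromosome 12 (101930104 to 101930589), inside the span of SCLY, with 0 to 0.676 FPKM. A table of gene names gave KRT18 to ENSMMUG00000031911, which lies 41138 bases from KRT8, and KRT19 to ENSMMUG00000018653. The keratin 18 and 19 values below are from these 2 rows, and counts are given with and without them.

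The lines were made from rhesus fibroblasts and grown on feeder cells that were removed before RNA extraction. Female naive lines (2) and male naive lines (2) were kept in the medium labelled 6SM, with 15% KnockOut serum replacement, N2 supplement, 4 ng/ml bFGF and 10 ng/ml human LIF. It also held CHIR99021 at 3 µM, PD0325901 at 0.5 µM, SB203580 at 10 µM and SP600125 at 10 µM, which inhibit GSK3, MEK, p38 and JNK. Male primed lines (2) were kept in hESM, with 20% serum replacement and bFGF at a concentration not given in the sources used here. The labels do not tie lines to donors or clones, so p-values measure only the spread between these lines, which may be technical. No female primed line was analysed here.

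Tight junctions seal neighbouring epithelial cells near their apical side. Claudins form the sealing strands and set which ions pass, occludin is a second membrane protein of the strands, and ZO-1, the product of TJP1, ties both to the actin cytoskeleton. Keratin filaments are built from pairs of 1 type II and 1 type I chain: keratin 8 is the type II chain of simple epithelium, and keratins 18 and 19 are its type I partners. Primate pluripotent stem cells grow as epithelial colonies, and in the human ones CLDN6 is known as a claudin of the undifferentiated state.

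FPKM values are corrected for transcript length and library size, and levels of different genes are set side by side below. Such comparisons are approximate, since a row can miss its gene: TPI1, a glycolysis gene, was listed at 0 in all 6 libraries. The fragments behind a value were estimated from the deposited bounds and are called effective fragments. Their sum was 8294782 and 10013491 for the female naive libraries, 1478692 and 1754857 for the male naive ones and 7607125 and 9970137 for the primed ones, so low genes were measured least precisely in male naive lines. Of 12 tested pluripotency markers, 8 were higher in naive lines and 0 lower, beside 6.72% and 4.59% of all tested rows. The pluripotency factor NANOG was at 73.8 and 95.9 FPKM in female naive and 28.7 and 30.7 FPKM in male naive lines, against 0.933 and 2.09 FPKM in primed lines, and POU5F1 in naive lines averaged 6.16 times its primed mean. TDGF1, a NODAL co-receptor of undifferentiated cells, was at 11.9 to 111 FPKM in naive lines, against 0.818 FPKM in primed line 2 and a listing at 0 in primed line 1. PRDM14 was at 0.52 and 1.13 FPKM in primed lines, TERF1 at 48.3 and 50.2 FPKM and DPPA4 at 21.8 and 19.6 FPKM. SOX2 was at 85.3 to 122 FPKM in naive and 141 and 124 FPKM in primed lines. LIN28B was at 46.4 to 79 FPKM in naive and 54 and 57.5 FPKM in primed lines. SALL4 was at 49 to 71.3 FPKM in naive and 98.8 and 48 FPKM in primed lines. SOX2, LIN28B, SALL4 and UTF1 were not called. These genes, POU5F1 and PRDM14 are outside the naming rule given below. Each comparison below sets naive lines against primed lines with these marker levels. Differences are on the log2(FPKM + 1) scale from limma fitted to all 13685 tested rows, and genes count as called where the p after Benjamini-Hochberg adjustment was under 0.05.

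CLDN6 (ENSMMUG00000003094, chromosome 20, 3161609 to 3165481) was the most abundant claudin in every library and the 1 gene of the set that was called. It was at 402 and 482 FPKM in female naive lines, 295 and 335 FPKM in male naive lines and 140.25 and 159 FPKM in primed lines. The groups did not overlap, and the female naive lines were the highest. Means were 442 ± 56.3 FPKM in female naive, 315 ± 28.1 FPKM in male naive and 149 ± 13 FPKM in primed lines (SD, n = 2 each), and the mean of the 4 naive lines was 2.53 times the primed mean. The difference of naive from primed lines was 1.31 (SE 0.13, limma adjusted p = 0.00824), higher in 4 of 4 naive lines. These values rested on 950 to 9160 effective fragments per library. Without each library in turn the adjusted p was at most 0.0475.

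Of the 8 rows tested under the files' symbols, 1 was higher in naive lines and 0 lower, against 11.3% of all tested rows called in either direction, 6.72% called higher and 4.59% called lower. With the keratin 18 and 19 rows it was 1 of 10. Groups did not overlap for 5 of the 8, each higher in naive lines (CLDN6, CLDN10, OCLN, TJP1 and KRT8), beside 18.9% of all tested rows in that direction and 34.8% in either. With the keratin 18 and 19 rows it was 6 of 10.

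Markers of neural and ectoderm cells also differed by state. Their sums were 37.1 and 38.9 FPKM in female naive and 131 and 114 FPKM in male naive lines, against 533 and 727 FPKM in primed lines. Of 9 tested, 4 (CRABP1, MAP2, NCAM1 and ZNF521) were lower in naive lines and 0 higher, beside 4.59% and 6.72% of all tested rows. A positive difference was held by 2 of the 9. CRABP1, a retinoic acid binding protein, made up most of each primed sum. It was at 10.9 and 20.4 FPKM in female naive and 60.7 and 54.6 FPKM in male naive lines, against 408 and 634 FPKM in primed lines. Of 14 fibroblast and feeder markers limma called 0, with 3 at an unadjusted threshold of 0.05, beside 30.9% of all tested rows. Of 6 trophoblast and amnion markers 1 was higher (IGFBP3), and limma called 0 of them without any 1 naive line or primed line 1. The part of these cells in the claudin and keratin differences was not tested, and fewer cells of a type and less RNA per cell cannot be told apart in such samples.

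**Figure D1:**
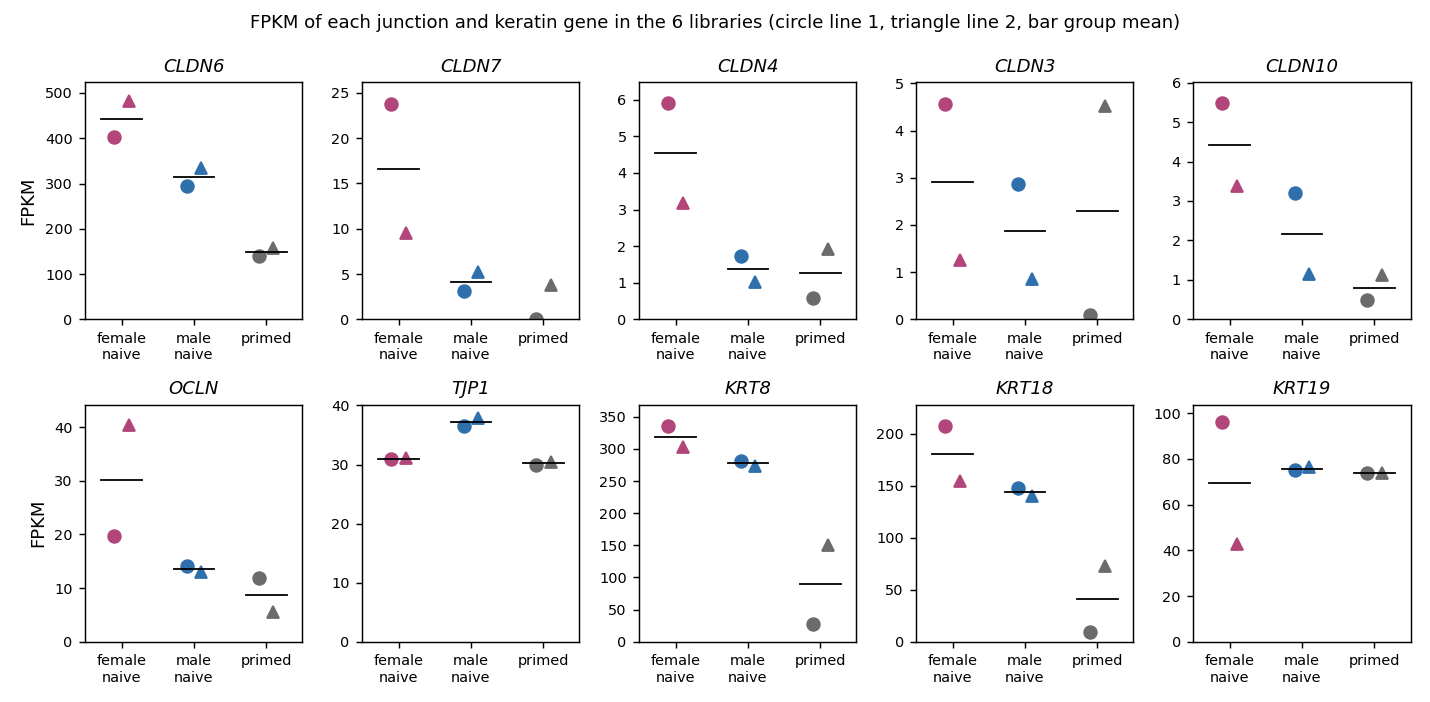
FPKM (linear axes from 0, a scale for each gene) in female naive, male naive and primed lines, with a point for each library and a bar at the group mean, left out where a library is listed at 0. KRT18 and KRT19 are the rows that the gene name table names. CLDN6 is at 295 FPKM or more in each naive line and at most 159 in the primed lines, and the primed lines lie apart in KRT8 and KRT18.

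The other claudins of the set were low. CLDN7 (chromosome 16, 6990233 to 6993408), which binds the adhesion molecule EpCAM, was at 23.7 and 9.58 FPKM in female naive, 3.08 and 5.23 FPKM in male naive and 3.8 FPKM in primed line 2, and was listed at 0 in primed line 1. Its difference of naive from primed lines was 2.04 (SE 0.67, adjusted p = 0.1), and it was past the threshold without primed line 2, where the listing at 0 was the only primed value left (3.17, adjusted p = 0.0397). A listing at 0 does not show absence, since TPI1, whose product is needed for glycolysis, was listed at 0 in all 6 libraries. CLDN10 (chromosome 17, 75845272 to 75985639), which forms paracellular ion channels, was at 5.47 and 3.38 FPKM in female naive, 3.19 and 1.14 FPKM in male naive and 0.484 and 1.13 FPKM in primed lines. The naive and primed groups did not overlap but were separated by less than 0.01 FPKM, and the difference of 1.17 (SE 0.36) was not called (adjusted p = 0.0906). CLDN10 rested on 6.04 and 1.38 effective fragments in male naive libraries.

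CLDN3 and CLDN4 are neighbours, 61345 bases apart on chromosome 3, and both encode receptors of a Clostridium enterotoxin. CLDN4 (51368748 to 51372557) was at 5.9 and 3.18 FPKM in female naive, 1.72 and 1.02 FPKM in male naive and 0.582 and 1.93 FPKM in primed lines. Both female naive lines were above the other 4 libraries, and male naive and primed lines overlapped. CLDN4 rested on 18 and 9 effective fragments in male naive libraries and 287 and 188 in female naive ones. CLDN3 (51306741 to 51307403), whose row spans 663 bases, was at 4.56 and 1.27 FPKM in female naive, 2.87 and 0.855 FPKM in male naive and 0.0845 and 4.53 FPKM in primed lines. All 3 groups overlapped for CLDN3, and each of its 6 values rested on at most 29.7 effective fragments. The differences of naive from primed lines were 0.72 for CLDN4 (SE 0.36, adjusted p = 0.232) and 0.33 for CLDN3 (SE 0.74, adjusted p = 0.793).

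Over the whole family of 23 claudin rows, CLDN6 made up 84.2% and 91.4% of the summed FPKM in female naive lines, 88.1% and 88% in male naive lines, and 81.7% and 80.5% in primed lines. The naive shares were all above the primed ones, but an exact two-sided permutation test of 4 against 2 libraries cannot go below the p = 0.133 it gave. Of the 18 claudins outside the set, 8 were tested and limma called 0. At an unadjusted threshold of 0.05 it also passed 0, beside 30.9% of all tested rows. The median difference of the 8 was -0.06 beside 0.03 over all tested rows. CLDN12, a claudin without the usual C-terminal motif that binds ZO-1, had the next highest mean, at 12 to 20.6 FPKM with overlapping groups (-0.01, SE 0.22, adjusted p = 0.981). CLDN8, CLDN16, CLDN17, CLDN18 and CLDN25 were listed at 0 in every library. CLDN9, which ends 207 bases before CLDN6 begins, stayed under 1 FPKM in all 6.

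**Figure D2:**
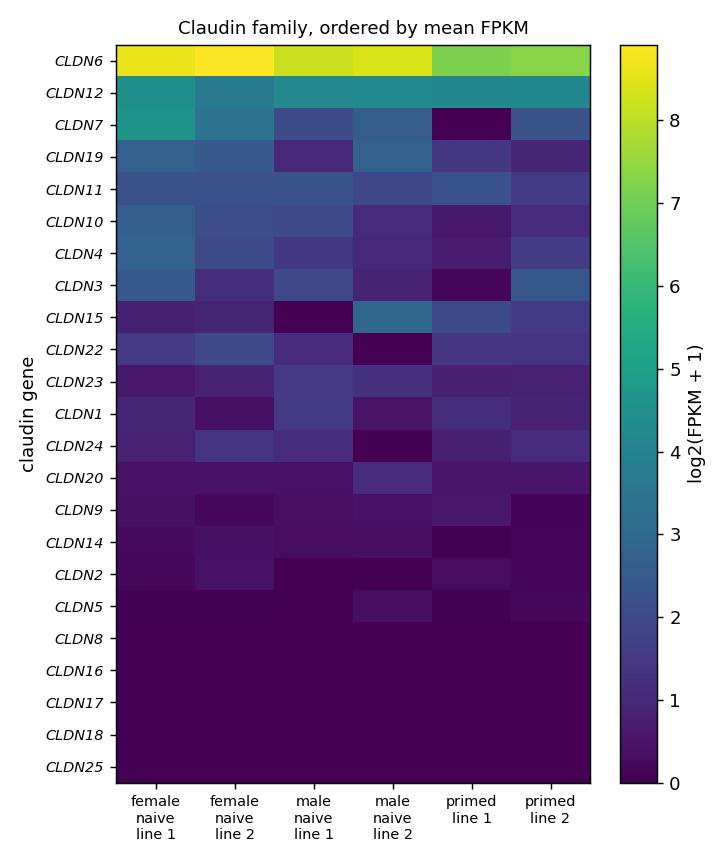
log2(FPKM + 1) of the 23 claudin rows (rows, by mean FPKM) in the 6 libraries (columns). CLDN6 is the brightest row in each library, CLDN12 is near even across the libraries, and the 5 bottom rows are listed at 0 throughout.

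OCLN (chromosome 6, 67371416 to 67429999) was at 19.8 and 40.3 FPKM in female naive, 14.2 and 12.9 FPKM in male naive and 12 and 5.61 FPKM in primed lines. Female naive lines were highest, and male naive line 2 was less than 1 FPKM above primed line 1. The difference of naive from primed lines was 1.16 (SE 0.37) and was not called (adjusted p = 0.0928). TJP1 (chromosome 7, 8788761 to 8866623) varied least of the set, at 30.9 and 31.1 FPKM in female naive, 36.5 and 37.8 FPKM in male naive and 29.9 and 30.5 FPKM in primed lines. Means were 31 ± 0.201 FPKM in female naive, 37.2 ± 0.917 FPKM in male naive and 30.2 ± 0.409 FPKM in primed lines (SD, n = 2 each), with a difference of naive from primed lines of 0.16 (SE 0.11, adjusted p = 0.361).

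KRT8 (chromosome 11, 49965208 to 49973024) was at 336 and 303 FPKM in female naive and 281 and 274 FPKM in male naive lines, against 28.3 and 151 FPKM in primed lines. All naive lines were above both primed lines, but primed line 2 was 5.34 times primed line 1. The mean of the 4 naive lines was 3.32 times the primed mean, and the difference of 2.16 (SE 0.59) was not called (adjusted p = 0.067). Left without primed line 1 it was 0.97 (adjusted p = 0.042), and without primed line 2 it was 3.35 (adjusted p = 0.00724), in each case with the remaining primed line assumed to vary like the other groups.

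Keratin 18 (ENSMMUG00000031911, chromosome 11, 50014162 to 50018234) followed KRT8 from library to library. It was at 207 and 154 FPKM in female naive and 148 and 140.3 FPKM in male naive lines, against 9.06 and 72.9 FPKM in primed lines. Primed line 2 was 8.04 times primed line 1, and the difference of naive from primed lines was 2.56 (SE 0.72, adjusted p = 0.0708). It was 4 without primed line 2 (adjusted p = 0.0105) and 1.13 without primed line 1, where it was not called (adjusted p = 0.0588), again with 1 primed line left and assumed to vary like the other groups. Keratins 8 and 18 have many processed copies in primate genomes, and how the authors assigned shared reads is not given in the sources used here. As a description chosen after the values were seen, keratin 18 had the highest Pearson r with KRT8 over the 6 libraries (0.999) among 8859 other rows with a symbol and a mean of 5 FPKM or more, of which 291 had r above 0.9. The next rows with a symbol on either side did not have this pattern: KRT78 was listed at 0 in 5 libraries, and EIF4B, a translation factor, was at 218 to 253 FPKM in naive and 282 to 427 FPKM in primed lines (-0.58, adjusted p = 0.0882).

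Keratin 19 (chromosome 16, 51615393 to 51620283) was at 96.1 and 43 FPKM in female naive, 75.1 and 76.4 FPKM in male naive and 73.7 and 73.7 FPKM in primed lines, with a difference of -0.08 (SE 0.30, adjusted p = 0.887). Female naive lines held both its highest and its lowest value. As a share of keratins 18 and 19 together, it was 31.7% and 21.8% in female naive lines, 33.7% and 35.3% in male naive lines, and 89% and 50.3% in primed lines. KRT8 was 1.62 to 1.97 times keratin 18 in naive lines and 3.13 and 2.08 times in primed lines. Both quantities separated naive from primed lines, at the smallest p that the exact permutation test allows (p = 0.133, adjusted p = 0.133 over 6 such quantities).

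**Figure D3:**
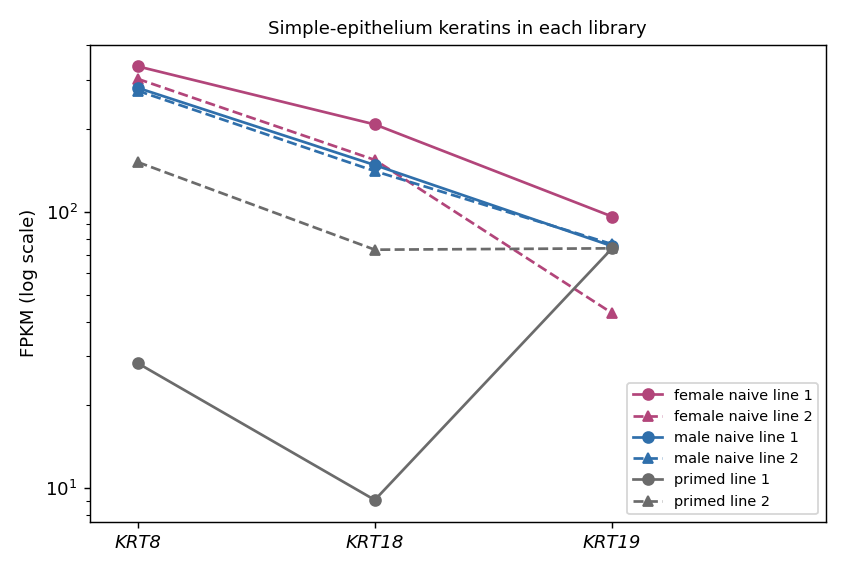
FPKM on a log axis of KRT8, KRT18 and KRT19, with a line for each of the 6 libraries. KRT8 and KRT18 are lowest in primed line 1, at 28.3 and 9.06 FPKM, and KRT19 is at 73.7 FPKM in both primed lines.

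Levels were lower in primed line 1 than in primed line 2 for 7 of the 8 tested rows, and for 9 of 10 with keratins 18 and 19, beside 50.9% of all tested rows. OCLN was the exception. These counts include TJP1 (gap of -0.027, exceeded in size by 94.6% of tested rows) and keratin 19 (-0.0011, exceeded by 99.4%), whose levels were nearly equal in both lines. The gap of KRT8 between these lines, -2.38, was exceeded in size by 0.826% of tested rows, that of keratin 18 (-2.88) by 0.533%, that of CLDN3 (-2.35) by 0.848% and that of CLDN7 (-2.26) by 0.950%. For CLDN6 it was -0.18, exceeded by 67.3%. With 1 library per line these gaps have no replicate check.

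Markers of other cell types differed between the primed lines as well. Of 14 tested fibroblast and feeder markers 13 were lower in primed line 1 (median -1.96), and their sum was 637 FPKM in primed line 1 and 1390 in primed line 2. TAGLN, a smooth muscle and fibroblast actin-binding protein, made up most of each sum, at 938 to 1669 FPKM in naive lines, 512 FPKM in primed line 1 and 873 FPKM in primed line 2. Levels of LUM, POSTN, COL3A1 and COL6A3, matrix genes chosen after their values were seen, were higher in primed line 2 than in each of the other 5 lines, with COL3A1 at 4.64 to 7 FPKM in naive lines, 0.414 FPKM in primed line 1 and 28.6 FPKM in primed line 2. Between naive and primed lines 5 of the 14 had a positive difference (median -0.19). Endoderm markers were lower in primed line 1 in 7 of 10 cases and higher in 3 (median -1.39). Their sum went the other way, at 98.1 FPKM in primed line 1 and 50.25 in primed line 2. CXCR4 was at 36.5 FPKM in primed line 1 and 12.5 FPKM in primed line 2. CER1 was at 0.491 and 6.89 FPKM in these lines and at 17.1 to 133 FPKM in naive lines. HNF4A and APOA2 of this list were under 1 FPKM in each library. Trophoblast and amnion also express these keratins, and their markers summed to 35.1 to 56.3 FPKM in all 6. Of 17 measured, 9 stayed under 1 FPKM in every library, GATA2, TP63 and GCM1 among them. VTCN1 was at 12.2 to 26.2 FPKM. CDX2, CGA and GATA3 were chosen after their values were seen. CDX2 was at 12.7 and 0.1885 FPKM in primed lines 1 and 2, 2.5 and 7.7 FPKM in male naive and 0.607 and 0.265 FPKM in female naive lines. CGA and GATA3 were highest in female naive line 1, at 8.24 and 4.97 FPKM. The part of these markers in the gap between the primed lines was not tested.

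**Figure D4:**
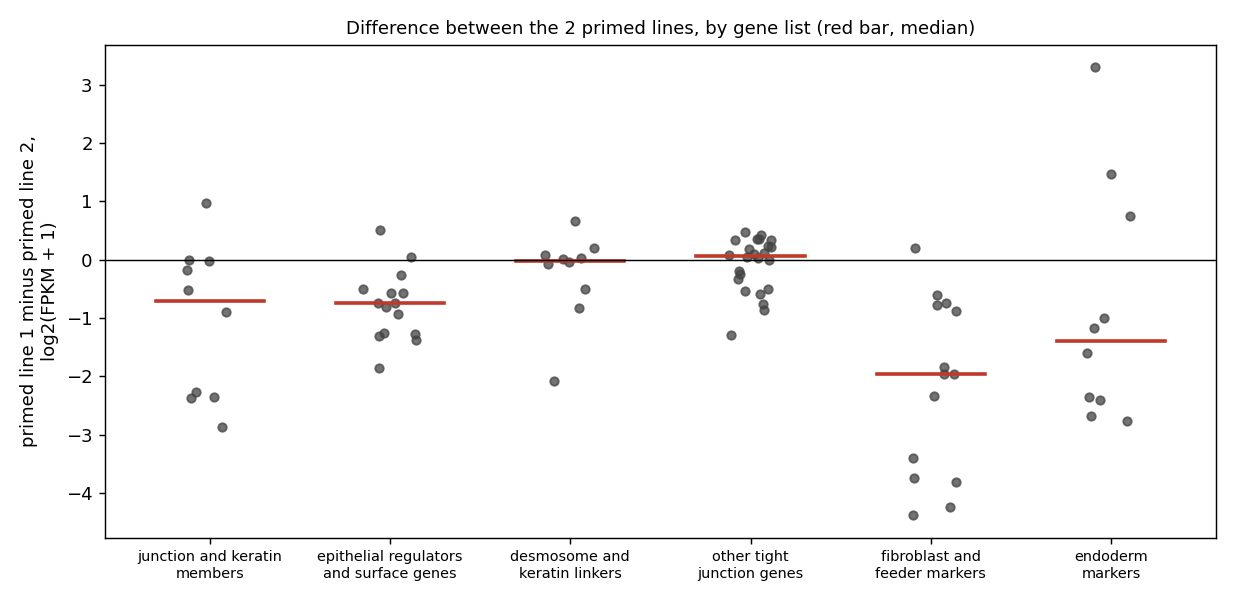
Difference between primed line 1 and primed line 2 on the log2(FPKM + 1) scale, with a point for each tested gene of 6 lists and a red bar at the median. The junction and keratin genes, the epithelial regulators and the fibroblast markers lie mostly below 0, and the desmosome and other tight junction genes lie around 0.

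Among male lines alone, CLDN6 was again the 1 called gene of the set, where 5.39% of all tested rows were called, 3.97% higher and 1.42% lower. Its difference of male naive from primed lines was 1.07 (SE 0.15, adjusted p = 0.0175). This call was lost without male naive line 1 (adjusted p = 0.0949), male naive line 2 (adjusted p = 0.131) and primed line 1 (adjusted p = 0.0636). KRT8 and keratin 18 differed by 2.06 (SE 0.68, adjusted p = 0.13) and 2.41 (SE 0.83, adjusted p = 0.141). The other 7 differed by 0.04 to 1.20 and were not called (adjusted p of 0.212 or more). Groups did not overlap for 5 of the 8 rows under the files' symbols (CLDN6, CLDN10, OCLN, TJP1 and KRT8), each higher in male naive lines, beside 34.8% of all tested rows higher, 21.6% lower and 56.4% in either direction. With the keratin 18 and 19 rows it was 7 of 10. With 1 primed line left out, KRT8 was called, at 0.87 without primed line 1 (adjusted p = 0.0476) and 3.25 without primed line 2 (adjusted p = 0.00549). This comparison shares its primed libraries with the one above.

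Between the naive groups, none of the set was called, where limma called 3.31% of all tested rows, 0.76% higher and 2.55% lower. At an unadjusted threshold of 0.05 it passed 21.7% of all tested rows and, of the set, CLDN6 and CLDN4. Levels in female naive lines were higher without overlap for 6 of 8 tested rows and lower for 1, TJP1, beside 19.4% and 37.6% of all tested rows and 57% in either direction. With the keratin 18 and 19 rows it was 7 of 10 higher and 1 lower. The differences of female from male naive lines were 1.68 for CLDN7 (SE 0.78, adjusted p = 0.278), 1.20 for CLDN4 (SE 0.42, adjusted p = 0.175), 1.01 for OCLN (SE 0.42, adjusted p = 0.236) and 0.48 for CLDN6 (SE 0.15, adjusted p = 0.133). For KRT8 and keratin 18 they were 0.20 and 0.31, each with an SE above 0.6. Sex and depth cannot be told apart here, since the male naive libraries were the shallowest.

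**Figure D5:**
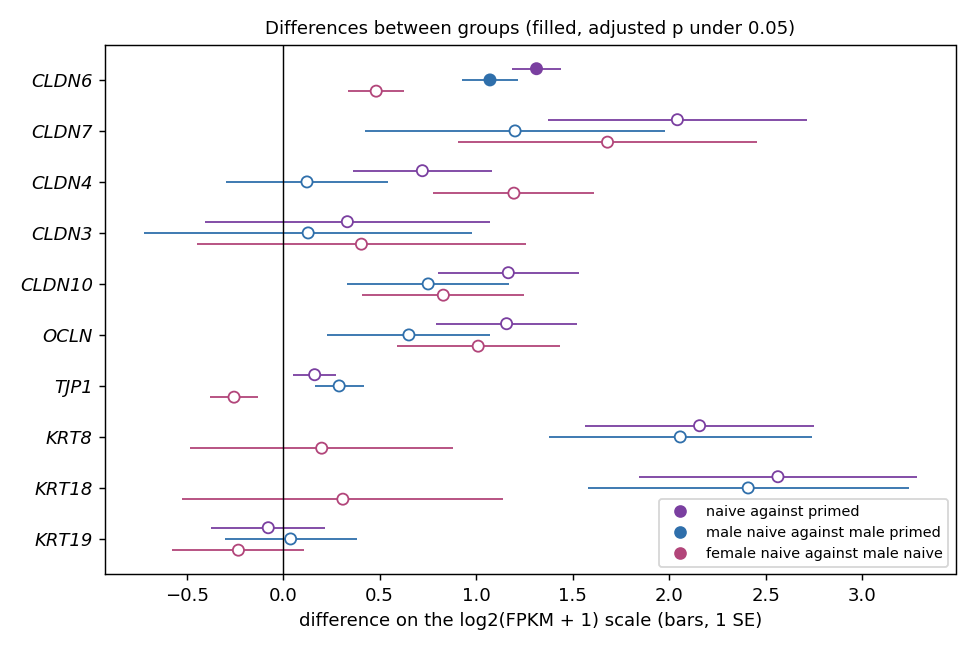
Differences between groups on the log2(FPKM + 1) scale for the 10 genes, with bars of 1 SE and filled points at an adjusted p under 0.05. CLDN6 has the 2 filled points, and KRT8 and KRT18 have larger differences from primed lines with SE of 0.59 to 0.83.

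The remaining tight junction genes held both directions. Of 24 tested, 4 were higher in naive lines and 1 lower, beside 6.72% and 4.59% of all tested rows. The median difference was 0.36, beside 0.03 over all tested rows. AMOTL1, an angiomotin family member at junctions, rose by 1.65 (SE 0.20, adjusted p = 0.0103), at 69.2 and 109 FPKM in female naive and 69.9 and 73 FPKM in male naive lines, against 26.6 and 22.6 FPKM in primed lines. Cingulin (CGN), a cytoplasmic junction protein, rose by 1.22 (SE 0.20), and PRKCI, an atypical protein kinase C of the apical polarity complex, by 0.83 (SE 0.14). The junctional adhesion molecules F11R and JAM3 moved in opposite directions. F11R, outside the naming rule and chosen after its values were seen, rose by 1.10 (adjusted p = 0.0368). JAM3 fell by 0.89 (SE 0.13, adjusted p = 0.0164), and JAM2 was not called (-0.86, adjusted p = 0.116). In male naive against primed lines F11R (0.66, adjusted p = 0.193) and JAM3 (-0.56, adjusted p = 0.0872) were not called. F11R was at 153 and 121 FPKM in female naive, 67.5 and 79.9 FPKM in male naive and 35.2 and 60.5 FPKM in primed lines. Without primed line 1 limma called 0 of the list, and it called 1 without either male naive line or female naive line 2 and 3 without female naive line 1.

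Desmosomes anchor keratin filaments at the membrane. Of 10 tested desmosome and linker genes, 2 were higher in naive lines and 0 lower (median 0.35), beside 6.72% and 4.59% of all tested rows. PKP2, a plakophilin, was at 17.2 and 18.2 FPKM in female naive and 13.4 and 12.5 FPKM in male naive lines, against 4.62 and 7 FPKM in primed lines (1.27, SE 0.19, adjusted p = 0.0168). JUP, plakoglobin, rose by 0.78 (SE 0.15, adjusted p = 0.0299). The count was 0 without any 1 of the male naive lines, the female naive lines or primed line 1, and 3 without primed line 2. Among 26 other measured keratins, 3 passed the filter and limma called 0. At an unadjusted threshold of 0.05 it passed 1 (KRT7), beside 30.9% of all tested rows. KRT7, a type II keratin of simple epithelium, was at 10.2 and 5.32 FPKM in female naive and 11 and 7.69 FPKM in male naive lines, against 0.796 and 4.94 FPKM in primed lines (1.51, SE 0.51, adjusted p = 0.107). In every library 20 of the 26 were under 1 FPKM, among them KRT5, the type II keratin of basal cells in stratified epithelium.

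Of 15 tested epithelial regulators and surface genes, 6 were higher in naive lines and 0 lower, beside 6.72% and 4.59% of all tested rows. Their median difference was 1.31, beside 0.03 over all tested rows. ESRP1, an epithelial splicing regulator, rose by 2.45 (SE 0.34, adjusted p = 0.0141), its paralog ESRP2 by 1.96 (SE 0.24, adjusted p = 0.011), the zinc finger factor OVOL2 by 2.23 (SE 0.26, adjusted p = 0.0102) and KLF5 by 1.61 (SE 0.27, adjusted p = 0.0227). All 4 were higher in 4 of 4 naive lines. Among male lines alone, limma called 3 of the 15 (ESRP1, ESRP2 and OVOL2). KLF5 was not called there (1.08, adjusted p = 0.103). Its levels were 6.76 and 6.09 FPKM in female naive lines, 2.27 and 2.82 FPKM in male naive lines and 0.293 and 1.17 FPKM in primed lines. OVOL2 was sparsely covered, with 14 and 12 effective fragments for the male naive lines and 2 and 8 for the primed ones. In all naive lines against primed lines, the mesenchymal and other filament genes had 0 of 10 higher and 2 lower. VIM, the intermediate filament vimentin, fell by 0.99 (SE 0.15, adjusted p = 0.016), and the repressor ZEB2 fell by 1.93 (SE 0.22, adjusted p = 0.0102). VIM was at 187 and 207 FPKM in female naive and 451 and 373 FPKM in male naive lines, against 642 and 501 FPKM in primed lines. Both genes were also lower in female than in male naive lines, with differences of -1.06 for VIM (SE 0.17, adjusted p = 0.0348) and -1.99 for ZEB2 (SE 0.26, adjusted p = 0.017). In male naive against primed lines limma called 0 of the 10. At an unadjusted threshold of 0.05 it passed 4, beside 25.7% of all tested rows. There VIM (-0.47, adjusted p = 0.154) and ZEB2 (-0.94, adjusted p = 0.0892) were not called. With all naive lines against primed lines, 4 of the 10 had a positive difference. Among them DES was at 114 to 178 FPKM in naive and 53.1 and 95.15 FPKM in primed lines (0.96, SE 0.27, adjusted p = 0.0733). FN1 differed by -0.05 (SE 1.02, adjusted p = 0.981). Without primed line 1, limma called 0 genes of either list and 177 rows in all. The epithelial count was 2 without either male naive line or female naive line 2 and 3 without female naive line 1, and the mesenchymal count was 1 without any 1 naive line.

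Rows with levels most like CLDN6 over the 6 libraries were RBM12, MME and ARC, with Pearson r of 1.000, 0.997 and 0.996. As many as 582 of 8859 rows had r above 0.9 with CLDN6.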

How the data were processed

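RNA sequencing of 6 libraries was used. The submitters' processing notes name TopHat 1.3.0. The sources used here do not give the quantifier, genome build or annotation. The authors deposited FPKM with lower and upper bounds for each Ensembl rhesus gene, scaled within each library, per the file headers. Gene starts in the files count from 0 (87.2% of 203 olfactory receptor rows then span whole codons) and were raised by 1. Effective fragments are FPKM doubled, divided by the gap between FPKM and its upper bound, then squared. They leave out the spread between lines and are not plain fragment counts, since they did not always follow FPKM and depth. In male naive lines 1 and 2, OCLN had 38.7 and 65 at 14.2 and 12.9 FPKM. AMOTL2 had 86.3 and 10.6 there, at 48.8 and 44.4 FPKM.

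A row was tested when 2 or more libraries reached 1 FPKM and every status was OK, which gave 13685 rows and dropped 40 by status. The model, from limma 3.58.1 (R 4.3.3), had log2(FPKM + 1) as outcome, 1 mean for each group, 3 residual degrees of freedom and a variance trend. This scale understates changes of low genes. Tests are two-sided. The fit was tested on simulated data. Figures and exact tests used Python 3.11.15 and scipy 1.17.1.

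The members and lists were chosen with earlier results of these data known. Outside the members, named genes are up to 4 called genes of each list with the smallest p, then up to 2 with the largest mean, the neighbours of KRT8 and keratin 18, and the 3 rows most like a called member. The call for 1 endoderm marker is not reported here. Numbers in the titles do not pair the lines.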

Additional observations from a re-analysis of the deposited data

How the results depend on the processing

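Of the set, CLDN6 was called in naive against primed lines under all 16 alternatives, with differences of 1.09 to 1.55 and adjusted p of 0.00754 to 0.0475. Called members numbered 1 to 3 without each library in turn in naive against primed lines, and 0 to 2 in male naive against male primed lines. Between the naive groups the number was 0 under each alternative.

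Over all rows, 1548 were called in naive against primed lines (920 higher, 628 lower). The count was 941 with no filter, 812 with the replicate block, 250 with sex ignored, 625 without both male naive libraries and 177 to 1081 without each library. Upper-quartile scaling gave 693 higher and 878 lower, and quantile normalization 741 and 739. For male naive against male primed lines, 738 were called (543 higher, 195 lower). The count was 400 with no filter, 373 with the replicate block, 348 when the female naive libraries were left out of the fit and 51 to 626 without each library. Upper-quartile scaling gave 391 and 357, quantile normalization 399 and 294 and median-of-ratios scaling 418 and 255. For female against male naive lines, 453 were called (104 higher, 349 lower), 268 with no filter, 207 with the replicate block and 41 to 523 without each library. Quantile normalization gave 118 and 223, and median-of-ratios scaling 114 and 219. The cause was not tested. Scaling moved the median of all rows by -0.147 to 0.133 on the log2 scale.

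Values under the threshold changed sign as follows. Without each library in turn, CLDN3 ranged over -0.84 to 1.51 in naive against primed lines (below 0 without primed line 1). Its range was -1.04 to 1.31 in male lines (below 0 without male naive line 1, at -0.40, and primed line 1) and -0.24 to 1.053 between naive groups (below 0 without female naive line 1 and, at -0.12, male naive line 2). CLDN4 in male lines ranged over -0.32 to 0.57 (below 0 without primed line 1 and, at -0.091, male naive line 1). Keratin 19 ranged over -0.36 to 0.21 in naive against primed lines and -0.80 to 0.34 between naive groups (above 0 without female naive line 2), and was at -0.13, -0.21 and -0.073 with upper-quartile, quantile and median-of-ratios scaling in male lines.

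Lines with the same number did not deviate together (r of -0.263 to -0.050 over tested rows). The replicate block changed no call of a member. Precision was limited for CLDN3, CLDN4, CLDN7 and CLDN10 in male naive lines, at 1 to 18 effective fragments. Taking keratins 18 and 19 from the gene name table was chosen after seeing the data.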
